A study of Homo sapiens with 6 samples.

Results

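The genes described here are 49 regulators, targets and antioxidant enzymes around NRF2, chosen by name from a fixed list of symbols, out of 47432 genes in each table. All 49 were found. Their transcripts were counted by RNA-seq in LOX-IMVI, which is an established line of human melanoma, after lentiviral delivery of a short hairpin RNA (shRNA). The 3 shCtrl libraries came from cells with the control pLKO.1 construct and the 3 shNFKBIZ libraries from cells with a pLKO.1 construct against NFKBIZ, the gene of the nuclear NF-κB co-regulator IκBζ. Cells of both groups were transduced, selected with puromycin and grown in RPMI-1640 medium with 10% fetal calf serum. The methods name 1 construct against NFKBIZ, so an effect of its loss and another effect of that hairpin cannot be told apart.

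NRF2, encoded by NFE2L2, is a transcription factor that KEAP1 holds at a low level by handing it to the proteasome. When electrophiles or oxidants modify KEAP1, NRF2 accumulates, pairs with a small MAF protein and binds the antioxidant response element of genes for glutathione synthesis, the thioredoxin system, NADPH supply and detoxification. Superoxide dismutases turn superoxide into hydrogen peroxide, which catalase, glutathione peroxidases and peroxiredoxins remove. The electrons used by the glutathione peroxidases and peroxiredoxins come in the end mostly from NADPH.

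The libraries held from 22264473 to 24624839 exon reads. NFKBIZ itself, the targeted gene, was at 41.4, 42.9 and 49.2 TPM (transcript level per exon length, scaled to the same sum in each library) in shCtrl and at 13.7, 14.05 and 13.3 in shNFKBIZ. This fall was -1.78 on the log2 scale, with an SE of 0.0581 and an adjusted P of 7.2e-17 by the edgeR quasi-likelihood test. The melanocyte markers SOX10, MLANA and S100B had 0 reads in every library, PMEL, TYR, TYRP1 and DCT stayed below 0.5 TPM, and MITF reached at most 3.58 TPM. AXL, a marker of dedifferentiated melanoma, lay between 384 and 490 TPM, and of the other 4 markers on that list SOX9, WNT5A and TEAD4 were expressed while NGFR was at most 0.113 TPM. SOX9 rose (log2 fold change 1.27) and WNT5A fell (-1.20) by over 2-fold in shNFKBIZ cells, so these markers moved in opposite directions. The melanocyte-lineage markers were thus mostly absent in both groups. Of the 8 leukocyte, endothelial and epithelial markers, none reached 0.5 TPM in any library.

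The antioxidant genes did not move together. TXNIP, OSGIN1 and GCLM rose by over 2-fold in shNFKBIZ cells, and SOD2, AKR1B1 and PGD fell by over 2-fold. NQO1 and GPX1 rose by less than that, and SRXN1 fell. Of these, NQO1, GCLM and SRXN1 are textbook NRF2 targets. The most abundant enzymes of the set, thioredoxin (TXN) and peroxiredoxin 1 (PRDX1), moved by less than 10%.

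Of the 49 genes, 40 passed the filter on low counts and were tested. Calls were made where the adjusted P, over all 13843 genes tested, did not exceed 0.05, and a called gene was past the threshold when its change was at least 2-fold. Of the 40 genes, 14 rose and 20 fell, and 6 were not called. In the whole transcriptome 32.5% of the genes tested rose and 32.8% fell, so calls were common everywhere, and the share of antioxidant genes that rose (35%) was near that background, while the share that fell (50%) was above it. This split depended on the scaling, since with library size alone 17 of the 40 rose and 12 fell. Past the threshold were 3 that rose and 3 that fell, which is 7.5% in each direction, against 3.84% and 5.12% of all genes. The counts scaled to library size with TMM factors (CPM) of the groups did not overlap for 33 of the 40, or 82.5%, against 68.7% of all genes. The median log2 fold change of the 40 genes was -0.08, beside 0.00431 for all genes tested. No set test was made, because the genes were chosen with earlier results of these data known.

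**Figure D1:**
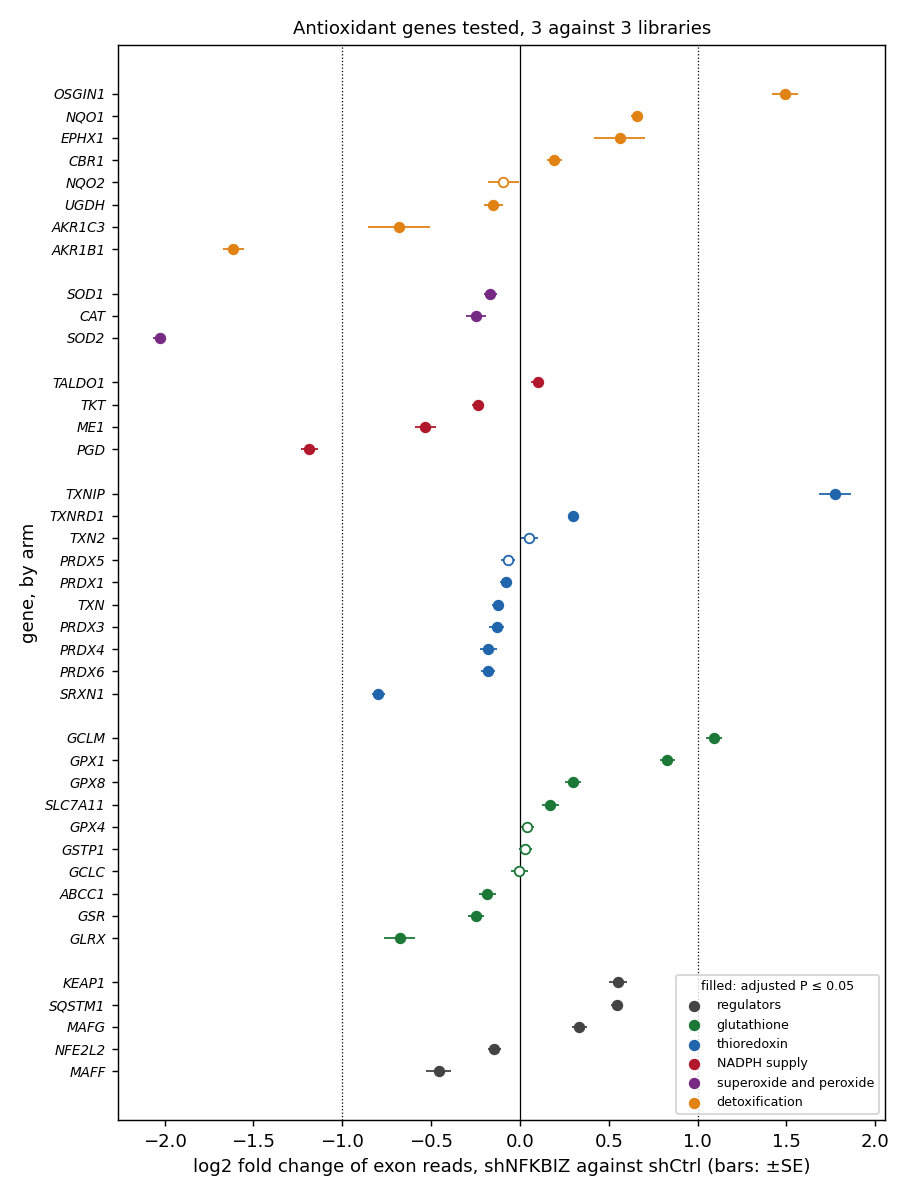
Log2 fold change of exon reads in shNFKBIZ against shCtrl cells (x axis, bars ±SE, 3 libraries per group) for the 40 genes tested (y axis), coloured by arm, with called genes as filled points and dotted lines at a 2-fold change. TXNIP (1.77), OSGIN1 (1.49) and GCLM (1.09) lie beyond the right line, and SOD2 (-2.03), AKR1B1 (-1.61) and PGD (-1.18) beyond the left one.

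Promoters were searched for the core of the antioxidant response element, the letters TGACNNNGC on either strand, in RefSeq windows of 300 bases (250 before and 50 after each start, GRCh38.p14). Windows were given for 41 of the 49 genes. The core was found in 11 of them (26.8%), against 16.1% of all 27305 gene symbols in the table. The sequences below show that the core stood in promoters of genes that rose, fell or were not called, each read 5′ to 3′ on the strand of its gene. Capitals mark the core, which reads GCNNNGTCA where it lies on the opposite strand, with 20 bases on each side, and KEAP1, ME1 and the TXNRD1 window shown held 2 matches, of which 1 is printed.
GCLM (chr1:93909436-93909484, minus strand, log2 fold change 1.09): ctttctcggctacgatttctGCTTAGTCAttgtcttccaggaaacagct
KEAP1 (chr19:10502797-10502845, minus strand, 0.55): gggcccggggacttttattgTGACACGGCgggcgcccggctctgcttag
TXNRD1, first of 2 windows with the core (chr12:104215660-104215708, plus strand, 0.30): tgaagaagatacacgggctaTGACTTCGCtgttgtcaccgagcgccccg
GSTP1 (chr11:67583726-67583774, plus strand, not called): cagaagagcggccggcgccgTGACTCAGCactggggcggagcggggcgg
ME1 (chr6:83431160-83431208, minus strand, -0.53): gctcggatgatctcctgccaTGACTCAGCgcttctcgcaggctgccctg
PGD (chr1:10398843-10398891, plus strand, -1.18): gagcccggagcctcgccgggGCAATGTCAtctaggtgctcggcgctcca

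The other genes with the core were CBR1, EPHX1, MAFF, GPX2 and MGST1, of which GPX2 and MGST1 were not tested. The median log2 fold change was 0.19 over the 9 tested genes with the core and -0.11 over the 24 tested genes that had a window without it. The 9 genes ranged from -1.18 (PGD) to 1.09 (GCLM). Tested genes without a window are in neither median, and the split was not tested. ME1 and GSTP1 held the same letters in their cores, which also contain TGACTCA, the site of AP-1 factors, and their changes in shNFKBIZ cells were -0.53 and 0.03. NQO1, TXNIP, OSGIN1, SOD2, AKR1B1 and SRXN1 had no match, which says only that these letters are not in this window.

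The arms differed in their summed levels. The 11 genes of the thioredoxin arm made up by far the largest pool, with 4132.7, 4180.9 and 4247.9 TPM in shCtrl and 4250.7, 4319.3 and 4325.3 in shNFKBIZ. That is a ratio of 1.03 in TPM and 0.97 when CPM with TMM factors was used, so its direction depended on the scale. TMM factors, which correct library sizes for differences in composition, were larger in shNFKBIZ than in shCtrl libraries, so ratios of TPM are higher than fitted fold changes throughout. The summed TPM of the 5 regulators was 1.37 times as high in shNFKBIZ cells, that of the 11 detoxification genes 1.34 times and that of the 14 glutathione genes 1.246 times. The 4 genes of NADPH supply had a ratio of 0.872 and the 4 of the superoxide and peroxide arm one of 0.796. In TPM the libraries of the groups did not overlap in any arm, though the gap in the thioredoxin arm was narrow (4247.9 against 4250.7). No test was made on sums. A single gene often held much of the sum, as NQO1 held 52.9% of the detoxification sum in shCtrl and SOD1 71.4% of the superoxide sum. SQSTM1 held 40.3% of the regulator sum in shCtrl and 45.5% in shNFKBIZ. The regulator sum also mixes genes that rose (KEAP1, SQSTM1 and MAFG) with genes that fell (NFE2L2 and MAFF). The largest fall in the superoxide arm was that of SOD2, from a mean of 98.8 TPM in shCtrl to 25.7 in shNFKBIZ. SOD1 went from 336 to 317 TPM.

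**Figure D2:**
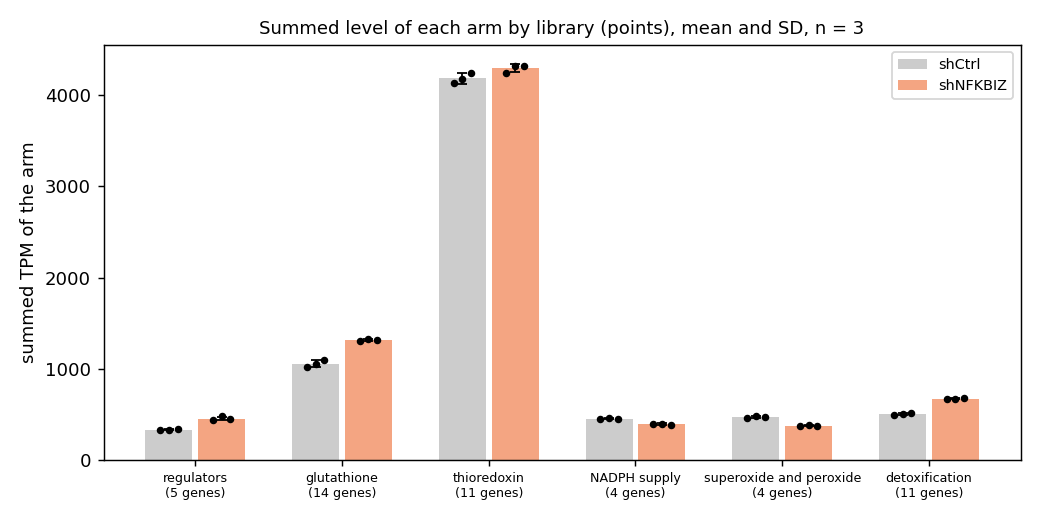
Summed TPM (y axis) of the genes of each arm (x axis) in each library, with points for libraries and bars for the mean ± SD of 3 libraries. The thioredoxin arm lies between 4133 and 4325 TPM in all libraries, whereas the detoxification arm goes from 502 to 672 TPM on average.

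The regulators were examined first. NFE2L2 (ENSG00000116044, chromosome 2, 177218667 to 177392756, minus strand, hg38) was at 35.7, 35.1 and 36.7 TPM in shCtrl and at 33.8, 33.6 and 35.6 in shNFKBIZ. The TPM of the groups overlapped, while their CPM with TMM factors did not, and the fall in the fitted model was -0.14 on the log2 scale (SE 0.0383, adjusted P 0.00242, edgeR). This small fall was lost with library size alone as scaling (-0.05, adjusted P 0.207, edgeR).

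KEAP1, the adaptor that presents NRF2 for degradation, was at 38.8, 35.5 and 38.095 TPM in shCtrl and at 57.3, 61.5 and 55.7 in shNFKBIZ. All shNFKBIZ libraries were above all shCtrl libraries, and the rise was 0.55 on the log2 scale (SE 0.0509, adjusted P 3.59e-09, edgeR). KEAP1 is among the genes with the core in a promoter window. SQSTM1, whose product p62 binds KEAP1 and feeds it to autophagy, and which is itself an NRF2 target, was at 133, 135 and 132 TPM in shCtrl and at 200.2, 213.9 and 204.1 in shNFKBIZ. It rose by 0.55 on the log2 scale (SE 0.0337). The groups were far apart relative to their spread. The small MAF partners went in opposite directions: MAFG rose (0.33, SE 0.0405) and MAFF fell (-0.46, SE 0.0706). Thus 3 of 5 regulators rose (60%) and 2 fell (40%), against 32.5% and 32.8% of all genes, and none was past the threshold. SQSTM1, MAFG, MAFF and NFE2L2 each overlap another gene that holds over 10% as many exon reads as they do, and strand was not used in the counting.

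In the glutathione arm, 10 of 14 genes were tested. Of these, 4 rose (40%), 3 fell (30%) and 3 were not called, against 32.5% of all genes that rose and 32.8% that fell. GCLM (ENSG00000023909, chromosome 1, 93885199 to 93909456, minus strand) encodes the modifier subunit of glutamate-cysteine ligase, the enzyme of the rate-limiting step of glutathione synthesis. It was at 33.5, 32.9 and 33.6 TPM in shCtrl and at 74.6, 73.1 and 77.9 in shNFKBIZ, 2.13-fold higher (log2 fold change 1.09, SE 0.0446, adjusted P 3.54e-15, edgeR), with no overlap between the groups. GCLC, the catalytic subunit of the same enzyme, was not called. It was at 23.2, 22.2 and 24.4 TPM in shCtrl and at 25.1, 24.6 and 24.1 in shNFKBIZ, with overlapping groups. Its fitted change was -0.0031 on the log2 scale (SE 0.0462, adjusted P 0.959, edgeR).

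SLC7A11, the cystine importer that supplies the cysteine for glutathione, was at 28.3, 31.4 and 30.1 TPM in shCtrl and at 36.6, 34.0 and 36.3 in shNFKBIZ. It rose by only 0.17 on the log2 scale (SE 0.0485, adjusted P 0.0043, edgeR), and its CPM overlapped between the groups once TMM factors were applied. An antisense gene, SLC7A11-AS1, overlaps it with over 10% as many reads. GSR, which reduces oxidised glutathione with NADPH, fell slightly (-0.25, SE 0.0453). ABCC1, which exports glutathione conjugates, also fell by a small amount (-0.18, SE 0.0483), a call that was lost with library size alone (adjusted P 0.0976, edgeR). GLRX, the cytosolic glutaredoxin that removes glutathione from protein thiols, fell from 9.76 ± 0.676 to 6.46 ± 0.733 TPM (SD, n = 3; log2 fold change -0.68, SE 0.0866).

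The glutathione peroxidases were unequal. GPX1, the cytosolic enzyme, had 171 ± 13.5 TPM in shCtrl and 321 ± 3.25 TPM in shNFKBIZ (SD, n = 3), a log2 fold change of 0.83 (SE 0.0434). Of its exon reads 30.6% were unique, another annotated gene overlaps it on the same strand, and on unique reads alone the change was 0.82. GPX8, a peroxidase of the endoplasmic reticulum, rose by 0.30 (SE 0.0445). GPX4, which reduces lipid peroxides in membranes and so guards against ferroptosis, was at 204, 204 and 229 TPM in shCtrl and at 231, 234 and 228 in shNFKBIZ. Its groups overlapped and it was not called (0.04, SE 0.0404, adjusted P 0.386, edgeR). GSTP1, the glutathione transferase of highest level in this arm, was at 391, 428 and 420 TPM and at 437, 459 and 442 TPM, and was not called either (0.03, SE 0.0374). Under library size alone both GPX4 (0.13) and GSTP1 (0.12) were called higher.

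In the thioredoxin arm, 10 of 11 genes were tested, and the largest changes were those of TXNIP and SRXN1, which act on thioredoxin and on peroxiredoxins. TXNIP (ENSG00000265972, chromosome 1, 145992435 to 145996579, minus strand), whose product binds and inhibits thioredoxin and restrains glucose uptake, was at 34.4, 45.6 and 39.1 TPM in shCtrl and at 141.8, 150.3 and 139.3 in shNFKBIZ. That is 3.42-fold higher (log2 fold change 1.77, SE 0.0890, adjusted P 8.27e-07, edgeR), and the lowest shNFKBIZ library lay far above the highest shCtrl library. SRXN1, sulfiredoxin, which restores over-oxidised peroxiredoxins, was at 186, 187 and 196 TPM in shCtrl and at 115, 118 and 113 in shNFKBIZ. It fell by 0.80 on the log2 scale (SE 0.0375, adjusted P 4.11e-14, edgeR), short of a 2-fold change. Only 5.39% of its exon reads were unique, and a readthrough gene spans it on the same strand. On the unique reads its log2 fold change was -1.001 (SE 0.113), at which it passed the threshold.

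TXNRD1, the selenoenzyme that reduces thioredoxin with NADPH and a well-known NRF2 target, was at 438, 426 and 442 TPM in shCtrl and at 567, 562 and 573 in shNFKBIZ, a rise of 0.30 on the log2 scale (SE 0.0324, adjusted P 4e-08, edgeR). TXN itself was at 1193, 1222 and 1233 TPM and at 1159, 1186 and 1195 TPM, a small fall (-0.13, SE 0.0327) that was lost with library size alone. PRDX1, PRDX3, PRDX4 and PRDX6, which reduce peroxides in cytosol, mitochondria and endoplasmic reticulum, fell by small amounts, from -0.18 to -0.08. Of these, PRDX1 was at the edge of the call (adjusted P 0.0406, edgeR), and it turned to 0.01 with library size alone. PRDX3 (-0.04, adjusted P 0.384, edgeR) and PRDX4 (-0.09, adjusted P 0.133, edgeR) also lost their calls under that scaling, and PRDX3 did so without shCtrl replicate 3 (adjusted P 0.0546, edgeR), whereas PRDX6 kept its call under all 16 alternatives. PRDX5 and mitochondrial TXN2 were not called. PRDX2 had 1 read in all libraries together and was not tested. In sum 2 genes of this arm rose (20%), 6 fell (60%) and 2 were not called, against 32.5% of all genes that rose and 32.8% that fell.

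Of the 4 genes of NADPH supply, 3 fell (75%) and 1 rose (25%), against 32.8% and 32.5% of all genes. PGD (ENSG00000142657, chromosome 1, 10398592 to 10420511, plus strand), which makes NADPH in the oxidative branch of the pentose phosphate pathway, was at 118, 119 and 115 TPM in shCtrl and at 52.7, 58.5 and 52.9 in shNFKBIZ, 2.27-fold lower (log2 fold change -1.18, SE 0.0457, adjusted P 1.31e-15, edgeR). The groups were far apart relative to the spread within them. The promoter windows of both PGD and GCLM, which went in opposite directions, hold the core. ME1, the cytosolic malic enzyme, fell from 31.8 ± 0.624 to 23.3 ± 0.677 TPM (SD, n = 3; log2 fold change -0.53, SE 0.0606). The enzymes of the non-oxidative branch moved little. TKT fell (-0.23, SE 0.0338), and TALDO1 had 182, 188 and 190 TPM in shCtrl and 212, 213 and 209 in shNFKBIZ, a small rise (0.10, SE 0.0352, adjusted P 0.0173, edgeR) that was lost without shCtrl replicate 1 or shNFKBIZ replicate 1 and without a filter, with an adjusted P of up to 0.0852 (edgeR).

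SOD2 showed the largest change of the 40 genes tested. It encodes the manganese superoxide dismutase of mitochondria, a known NF-κB target (ENSG00000291237, chromosome 6, 159669069 to 159762529, minus strand). It was at 99.8, 100.1 and 96.7 TPM in shCtrl and at 25.6, 25.7 and 25.7 in shNFKBIZ, 4.08-fold lower (log2 fold change -2.03, SE 0.0368, adjusted P 5.15e-21, edgeR). The other tested genes of this arm changed little. SOD1, the cytosolic copper and zinc enzyme, was at 326, 340 and 341 TPM in shCtrl and at 311, 328 and 311 in shNFKBIZ, a fall of -0.17 (SE 0.0352), and catalase (CAT) was at 35.2, 35.2 and 37.0 TPM and at 33.3, 30.4 and 32.1 TPM, a fall of -0.25 (SE 0.056). With library size alone SOD1 was not called (adjusted P 0.0587, edgeR). WTAP and ACAT2 overlap SOD2 on the other strand, and their part in its exon and intron reads was not tested.

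The remaining genes reduce carbonyls and quinones, detoxify, or are other NRF2 targets. NQO1, the quinone reductase that is among the most used read-outs of NRF2, was at 260, 269 and 268 TPM in shCtrl and at 440, 444 and 447 in shNFKBIZ, 1.58-fold higher (log2 fold change 0.66, SE 0.0336, adjusted P 1.59e-13, edgeR). OSGIN1 (ENSG00000140961, chromosome 16, 83931311 to 83966332, plus strand), an oxidative stress-induced growth inhibitor, was at 6.25, 7.36 and 6.58 TPM in shCtrl and at 20.2, 20.6 and 19.4 in shNFKBIZ, 2.81-fold higher (log2 fold change 1.49, SE 0.0725, adjusted P 7.27e-14, edgeR). In both genes the groups were far apart.

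AKR1B1 (ENSG00000085662, chromosome 7, 134442356 to 134459284, minus strand), the aldose reductase that turns glucose into sorbitol and reduces aldehydes, went the other way. It was at 61.9, 66.9 and 68.5 TPM in shCtrl and at 23.3, 21.4 and 23.6 in shNFKBIZ, 3.06-fold lower (log2 fold change -1.61, SE 0.0571, adjusted P 3.24e-16, edgeR). AKR1C3, a steroid and prostaglandin reductase, had a low level and fell from 2.76 ± 0.199 to 1.82 ± 0.0838 TPM (SD, n = 3; log2 fold change -0.68, SE 0.174). It has close paralogues, and 84.0% of its exon reads were unique. The microsomal epoxide hydrolase EPHX1 rose at a low level (0.56, SE 0.145), the carbonyl reductase CBR1 rose slightly (0.19, SE 0.0424), and NQO2 was not called. UGDH fell slightly (-0.15, SE 0.0526), a call that was lost with library size alone (-0.06, adjusted P 0.328, edgeR), with DESeq2 (adjusted P 0.0663) and without shCtrl replicate 1 (adjusted P 0.0668, edgeR). EPHX1, CBR1 and, in the glutathione arm, GLRX each overlap another gene with over 10% as many reads.

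**Figure D3:**
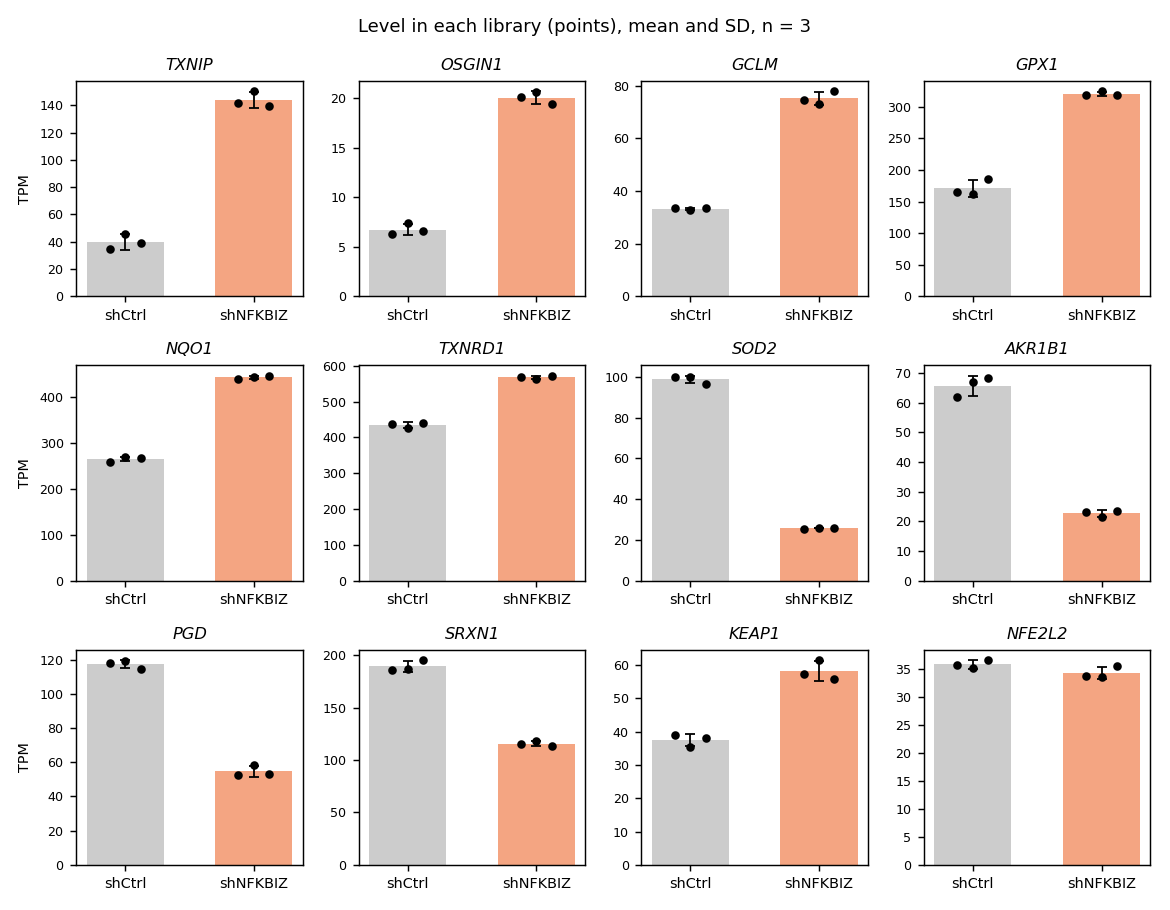
TPM (y axis) in the 3 shCtrl and 3 shNFKBIZ libraries (x axis) for 12 genes, with points for libraries and bars for the mean ± SD. TXNIP, OSGIN1, GCLM, GPX1, NQO1, TXNRD1 and KEAP1 are higher and SOD2, AKR1B1, PGD and SRXN1 lower in every shNFKBIZ library, whereas the libraries of NFE2L2 overlap.

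The 9 genes that were not tested were PRDX2, SOD3, GPX2, GPX3, MGST1, GSTM3, AKR1B10, AKR1C1 and AKR1C2, none with more than 11 exon reads in a library. SOD3 and GPX2 had 0 reads in all 6 libraries, which allows up to 3 reads, or a CPM of 0.122 to 0.135, in a library, for counting error only. AKR1B10, AKR1C1 and AKR1C2, which are strongly induced NRF2 targets in many carcinoma lines, were thus at or near 0 in both groups. Each tested gene had at least 40 reads in every library.

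Other genes of the pathway were described from a list of 86 that holds none of the 49, of which 85 were in the tables and 65 were tested. Of these, 25 rose (38.5%), 21 fell (32.3%) and 19 were not called, against 32.5% and 32.8% of all genes. Past the threshold were 4 rises (6.15%) and 6 falls (9.23%), against 3.84% and 5.12%, and the median log2 fold change was 0.03. The 3 largest changes past the threshold were those of HMOX1, CHAC1 and IDH1. HMOX1, heme oxygenase 1 and a target of both NRF2 and BACH1, was at 20.7, 21.9 and 20.98 TPM in shCtrl and at 321, 316 and 311 in shNFKBIZ (log2 fold change 3.81, SE 0.0488), more than any of the 49 genes. CHAC1, which degrades glutathione, fell by 2.14 on the log2 scale (SE 0.168) from a level of at most 12.2 TPM. IDH1, a cytosolic source of NADPH, was at 102, 98.4 and 105 TPM in shCtrl and at 27.9, 28.7 and 28.8 in shNFKBIZ (log2 fold change -1.92, SE 0.0424).

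Outside the rule for named genes, regulators on this list were added after their values were seen. The repressor BACH1 fell (-0.65, SE 0.045) and so did MAFK, another small MAF gene (-0.95, SE 0.0655). Neither was past the threshold, and 32.8% of all genes fell. Of the other regulators on the list, CUL3 (-0.26), RBX1 (-0.35) and NFE2L1 (-0.10) fell, NFE2L3 rose (0.22) and BACH2 was not called.

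To ask whether spliced and unspliced RNA moved alike, intron reads were tested with the same model, and a joint model then compared each gene's exon change with its intron change. Of 36 antioxidant genes tested on intron reads, 11 rose and 5 fell, against 19.3% and 19.5% of all 12119 genes tested. The 36 include MGST1, which had only 1 exon read in all libraries together and 5 to 15 intron reads per library. It was not called on intron reads. Intron counts were low, from 5 to 555 reads per gene and library. Of 35 genes tested in both, the exon change differed from the intron change in 15, against 28.9% of all 11025 genes tested in both. In 10 of these 15 the exon change was the lower one, as it was in 1733 of the 3182 genes called among all genes.

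OSGIN1 had a log2 fold change of 1.49 in exon reads and 1.44 in intron reads (SE 0.160), with a difference of 0.06 (SE 0.176) that was not called. NQO1 had 0.66 and 0.69 (SE 0.130), and its difference of -0.02 (SE 0.126) was not called. AKR1B1 had -1.61 and -1.32 (SE 0.227), and the difference of -0.28 (SE 0.244) was not called (adjusted P 0.429, edgeR). For SOD2, intron reads fell far less than exon reads, from 212, 246 and 222 to 174, 213 and 157 reads, a log2 fold change of -0.41 (SE 0.0965). The difference was -1.60 (SE 0.0988, adjusted P 6.33e-27, edgeR). PGD had 48, 57 and 51 intron reads in shCtrl and 45, 38 and 49 in shNFKBIZ (-0.33, SE 0.176, not called), and its exon change was lower by -0.84 (SE 0.182). GSTP1 and TXN2 were not called on exon reads, but their few intron reads rose. The log2 fold change of intron reads was 0.93 (SE 0.259) for GSTP1 and 0.77 (SE 0.216) for TXN2. Their differences of -0.89 (SE 0.238) and -0.71 (SE 0.215) were called.

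SRXN1 had opposite changes, with few intron reads that rose from 22, 15 and 16 to 27, 35 and 31 (0.72, SE 0.252) while its exon reads fell. TKT, PRDX3 and PRDX6 likewise had intron reads that rose and exon reads that fell. Only 5.39% of the SRXN1 exon reads were unique, and the part of the readthrough gene in its exon and intron reads was not tested. GCLM rose more in exon than in intron reads, by 0.50 (SE 0.148), as did TXNRD1, by 0.32 (SE 0.0702), and SQSTM1, by 0.47 (SE 0.0760). The intron share of all gene reads was itself higher in shNFKBIZ libraries, 7.63% to 8.15% against 7.16% to 7.46%. In the joint model exon and intron counts were scaled separately, each with their own library sizes and TMM factors. Any part of the share that remained in these differences was not tested.

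**Figure D4:**
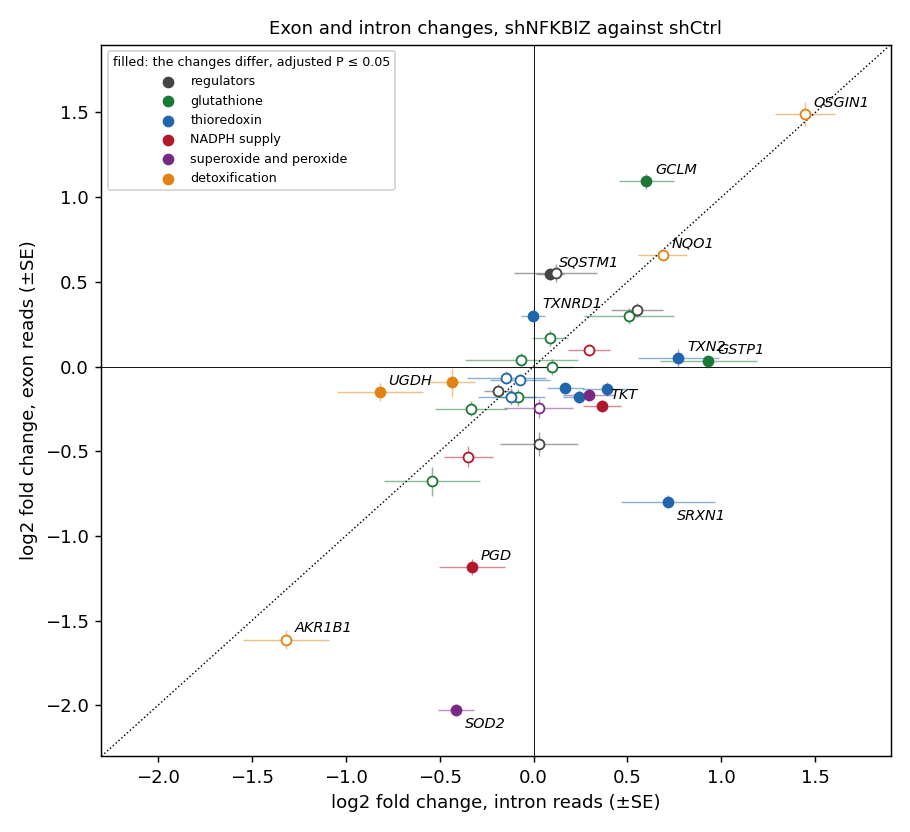
Log2 fold change of exon reads (y axis) against that of intron reads (x axis), both ±SE, for the 35 genes tested in both, coloured by arm and filled where these changes were called different. OSGIN1, NQO1 and AKR1B1 lie near the dotted line of equal change, whereas SOD2 (-2.03 and -0.41) and SRXN1 (-0.80 and 0.72) lie well below it.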

How the data were processed

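RNA-seq was performed on 3 shCtrl and 3 shNFKBIZ libraries of LOX-IMVI cells, grouped by sample title. The authors mapped the reads to hg38 (GRCh38.109) in CLC Genomics Workbench 24.0 under default settings without strand, and deposited whole-number counts per gene for each library. Total exon reads, which include fragments that map to several places, were tested. TPM was recomputed from deposited exon reads and exon length and equalled the deposited TPM to within 5.0e-07.

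Low counts were removed with filterByExpr (13843 genes kept), and groups were compared with TMM factors and the robust, two-sided quasi-likelihood test of edgeR 4.0.16 in R 4.3.3, with Benjamini-Hochberg adjustment over all genes tested. The SE is the log2 fold change divided by the root of F. Whether exon and intron changes differed was tested as the interaction of read type and group, with each library as a block. The scripts were tested on simulated data.

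The genes and lists were chosen with earlier results of these data known. Values of every library are given for genes past the threshold, for the most changed and most abundant gene of each arm, and for core members; of the other pathway genes, the 3 largest changes past the threshold are named. Alternatives were RLE factors, library size alone, a minimum of 10 counts or no filter, the likelihood ratio test, DESeq2 1.42.0, unique exon reads, total gene reads, leaving out the 10 genes of highest level or 1 library at a time, a replicate block, and other thresholds. The methods speak of independent experiments, the labels only of numbers, and p-values measure the spread between these libraries. Within a group, any pair of libraries differed beyond counting noise, so none was a copy. In bulk RNA, fewer cells with a transcript and less of it per cell cannot be told apart.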

Additional observations from a re-analysis of the deposited data

How the results depend on the processing

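Each of the 40 genes was refitted under 16 alternatives. Of these 640 values, 638 kept the direction of a called change and their side of the threshold. The exceptions were PRDX1, which went from -0.08 to 0.01221 with library size alone, and SRXN1, which reached -1.001 and the threshold with unique exon reads. The genes past the threshold numbered 6 (3 higher and 3 lower) under all refits except unique reads, which gave 7, and 11 (5 higher and 6 lower) with a 1.5-fold limit. With library size alone 17 genes rose and 12 fell, because that scaling moved all genes up (median of all genes 0.0937), and the median of the 40 genes was 0.00491. Leaving out 1 library at a time gave medians from -0.1003 to -0.06301. Of the 40 genes, 14 changed their call at an adjusted P of 0.05 in at least 1 setting, and each of these had a log2 fold change between -0.18 and 0.10. Among the fits that left out 1 library, PRDX1 lost its call without shCtrl replicate 1 or 2 or shNFKBIZ replicate 1 or 2 (adjusted P 0.0681, 0.0814, 0.121 and 0.126), UGDH without shCtrl replicate 1 (0.0668), TALDO1 without shCtrl replicate 1 or shNFKBIZ replicate 1 (0.0852 and 0.0804) and PRDX3 without shCtrl replicate 3 (0.0546), while PRDX5 gained one without shNFKBIZ replicate 2 (0.0447; all edgeR).

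With CPM and TMM factors per exon length in place of TPM, the ratios of summed levels were 0.97 for the thioredoxin arm, which reversed it, 0.8236 for NADPH supply, 1.178 for glutathione, 1.266 for detoxification, 1.293 for the regulators and 0.7515 for superoxide and peroxide. Libraries that share a replicate number were only weakly correlated (correlations of deviations 0.0207, 0.0561 and 0.0288), although every library correlated best with its own number. Whether the numbers pair the libraries was thus not settled. A replicate block left 6 genes past the threshold, 14 that rose and 20 that fell, and gave 17 called on intron reads, against 16. With 10 intron reads in every library there were also 17, and with only bases before the start, 10 promoters held the core in place of 11. The test of exon against intron changes had no alternative. Depth limits intron reads and the 9 genes with at most 11 reads.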
